A study of Mus musculus with 9 samples.

Results

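The miRNAs described here come from the Mirg cluster, the distal miRNA cluster of the imprinted Dlk1-Dio3 domain on mouse chromosome 12, which runs from miR-379 to miR-410. The rule that chose them used names alone and took the rows of the deposited table whose mature miRNA belongs to a precursor of this cluster. That gave 71 mature miRNAs from 36 precursors, out of 1448 listed. Small RNA was sequenced from the hippocampus of 9 adult male C57BL/6J mice, 3 in each of 3 groups. The saline group was given 0.9% saline. The LPS group received a single intraperitoneal dose of 1 mg/kg lipopolysaccharide (LPS), a component of the outer membrane of Gram-negative bacteria that activates innate immune signalling, and its label also names 0.12% saline. The LPS + GAS group received the same LPS and then 100 mg/kg gastrodin (GAS), a phenolic glucoside from the orchid Gastrodia elata, 1 h after LPS. The methods also describe GAS given together with LPS. The time at which the sequenced hippocampi were taken is not given for each library, no group received GAS without LPS, and nothing says that the 3 mice of a group came from separate litters or experiments, so the spread between libraries may be partly technical.

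In this domain the protein-coding genes are transcribed from the paternal chromosome and the long noncoding RNAs Meg3, Rian and Mirg from the maternal one. The miRNAs of the cluster are cut from hairpins in the long maternal transcript, so a single transcription unit feeds many mature miRNAs with different seeds. They are found in placental mammals, are enriched in brain, and in neurons their transcription responds to activity through the factor Mef2. MiR-134 is known for repressing Limk1 in dendritic spines, and miR-134, miR-329 and miR-381 for their part in activity-dependent growth of dendrites. MiR-485 is known to act on the synaptic vesicle protein SV2A. MiR-369-3p was described on the AU-rich element of the mRNA of tumour necrosis factor, a cytokine that LPS induces, and the miR-376 group is known for A-to-I editing in the seed. Mice that lack the cluster are known for anxiety-like behaviour.

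The mature sequences of the members that carry most of the reads, and of those with the lowest p-values in the comparisons of the treatments, are printed first, because the seed decides which mRNAs a miRNA pairs with. Capitals mark the seed, bases 2 to 8 from the 5′ end. The sequences were read from the deposited table and were identical to the RefSeq mature miRNAs on GRCm38.p6 for all 67 of the 71 members that the RefSeq table holds. They run 5′ to 3′.
miR-376a-3p: aUCGUAGAggaaaauccacgu
miR-376b-3p: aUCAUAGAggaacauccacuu
miR-411-5p: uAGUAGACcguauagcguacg
miR-379-5p: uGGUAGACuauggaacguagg
miR-369-5p: aGAUCGACcguguuauauucgc
miR-369-3p: aAUAAUACaugguugaucuuu
miR-410-3p: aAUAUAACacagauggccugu
miR-154-5p: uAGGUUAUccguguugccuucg
miR-382-5p: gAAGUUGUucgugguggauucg
miR-300-3p: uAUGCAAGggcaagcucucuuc
miR-381-3p: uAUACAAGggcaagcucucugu
miR-134-5p: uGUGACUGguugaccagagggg
miR-329-3p: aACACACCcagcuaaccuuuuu
miR-495-3p: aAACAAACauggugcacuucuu
miR-543-3p: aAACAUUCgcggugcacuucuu
miR-377-3p: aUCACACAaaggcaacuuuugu
miR-409-5p: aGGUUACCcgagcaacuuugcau
miR-541-3p: uGGCGAACacagaauccauacu
miR-1197-3p: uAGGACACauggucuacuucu
MiR-376c-3p, miR-485-5p, miR-487b-3p and miR-539-3p are named only.

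The members were 18 to 25 bases long and held 64 different seeds, so most of them have a seed of their own within the cluster. The pairs that shared a seed were miR-379-3p with miR-411-3p, miR-381-3p with miR-539-3p, miR-299a-3p with miR-299b-3p, miR-379-5p with miR-1193-5p, miR-758-5p with miR-1197-5p, miR-410-5p with miR-494-5p and miR-376b-5p with miR-376c-5p. Outside the cluster, miR-329-3p shared its seed with miR-362-3p, miR-410-3p with miR-344d-3p and miR-344e-3p, miR-485-5p with miR-1962, and miR-495-3p with miR-1192 and miR-12200-5p. MiR-1193-3p, miR-377-5p, miR-668-5p and miR-412-3p also shared a seed with miRNAs outside it. Of the 2211 pairs among the 67 members matched to RefSeq, compared without gaps, 12 matched at 75% or more of the longer sequence, against a median of 36.4% over these pairs. MiR-376c-3p, miR-485-5p, miR-487b-3p and miR-539-3p did not enter this count. MiR-379-3p and miR-411-3p are shown as the closest pair of tested members with 1 seed.
miR-379-3p: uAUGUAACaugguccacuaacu
miR-411-3p: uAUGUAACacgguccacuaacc
These matched at 90.9% of their bases. MiR-300-3p and miR-381-3p matched at 86.4% and miR-376a-3p and miR-376b-3p at 85.7%, and the neighbours miR-495-3p and miR-543-3p at 81.8%, all with different seeds. No member had the same mature sequence as another row of the table, but the sources used here do not give how the authors counted a read with a mismatch, so counts of these close pairs are uncertain where a read could fall to either.

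RefSeq places 34 of the 36 hairpins, from chr12:109709060-109743795 on GRCm38, a stretch of 34.7 kb. All but Mir299b, which lies antisense to Mir299a, are on the plus strand. The Mirg gene of GENCODE M21 spans chr12:109729764-109749460, so 12 hairpins lie inside that model and 22 lie upstream of it. Inside it, the hairpins of mir-382, mir-134, mir-668, mir-485, mir-377, mir-412, mir-369 and mir-410 overlap an exon, and those of mir-154, mir-496a, mir-541 and mir-409 lie in an intron. Mir495 lies at chr12:109718754-109718816 and Mir329 at chr12:109713481-109713577, both upstream of the Mirg model.

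The members took between 2.34% and 3.41% of the reads of a library, with library totals of 10119758 to 11457656 miRNA reads. Levels are given as CPM, the reads per 1000000 reads of a library after scaling by TMM factors of 0.914 to 1.19. Of the 71 members, 61 reached 10 reads in at least 3 of the 9 libraries, the minimum for a test, among 628 of all miRNAs. The 7 neuronal miRNAs listed for a check of the tissue, among them miR-124-3p and miR-9-5p, summed to between 114616 and 152280 CPM, and the 4 miRNAs of hindbrain, where Hox genes are active, to between 12.96 and 41.7 CPM. The list of oligodendrocytes (3 of 3 miRNAs found, none at 0) ranged from 1443 to 4818 CPM and that of leukocytes and microglia (4 of 4, none at 0) from 2569 to 6226 CPM, and both were lowest in LPS replicate 2. The choroid plexus and ependyma list, 14 of 14 miRNAs, ranged from 9616 to 56739 CPM, highest in LPS + GAS replicate 1. In bulk tissue, fewer cells of a type and less RNA per cell cannot be told apart.

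The members were present at very unequal levels, some of them high. Averaged over the 9 libraries, 8 members lay above 1000 CPM, 18 between 100 and 1000 CPM, 23 between 10 and 100 CPM, 10 between 1 and 10 CPM, and 12 at or under 1 CPM. Among the tested members the median of the mean levels was 57.7 CPM, beside 22.7 CPM over all 628 tested miRNAs. Members made up 13 of the 100 most abundant miRNAs and 3 of the 50 most abundant, beside 61 of the 628 tested miRNAs.

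MiR-376a-3p was the highest. Its levels were 4294, 3861 and 5286 CPM in the saline group, 4961, 3710.3 and 3956 in the LPS group and 3464, 4224 and 5663 in the LPS + GAS group, where the values of a group are those of replicates 1, 2 and 3 in that order, here and below. The 3 groups overlapped, and LPS + GAS held both the lowest and the highest library. MiR-411-5p followed with 3975, 4483 and 5174 CPM in the saline group, 4195, 4122 and 4256 in the LPS group and 3742, 3928 and 4304 in the LPS + GAS group. It was the steadier of the pair, with a coefficient of variation of 9.75% over the 9 libraries against 17.3% for miR-376a-3p. MiR-379-5p, from the hairpin at the 5′ end of the cluster, had 3342, 3502 and 4789.5 CPM in the saline group, 4004, 3392 and 3474 in the LPS group and 2904, 3485 and 3839 in the LPS + GAS group. Its highest library was saline replicate 3 and its lowest LPS + GAS replicate 1, and the groups overlapped.

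Below these, miR-369-5p averaged 1966 CPM, miR-410-3p 1764, miR-300-3p 1448, miR-487b-3p 1195, miR-154-5p 1009.9, miR-382-5p 977 and miR-381-3p 908. MiR-410-3p, from the last hairpin of the cluster, had 1699.7, 1256 and 2437 CPM in the saline group, 2075, 1404 and 1485 in the LPS group and 1295, 1866 and 2354 in the LPS + GAS group, with a coefficient of variation of 25.3%, the largest of these 10 members. MiR-381-3p spread least of the 61 tested members, with 945, 888 and 1054 CPM in the saline group, 852, 1012 and 821 in the LPS group and 829, 861 and 908 in the LPS + GAS group, a ratio of 1.28 between the highest and the lowest library. The first 4 members took 47.2% to 53.4% of the reads of the cluster in each library and the first 10 took 75.3% to 79.4%. Neighbours in this order overlapped in their ranges over the 9 libraries, except miR-379-5p and miR-369-5p, whose ranges were apart.

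Levels were uneven along the transcript, with high and low hairpins interspersed and some runs of similar level. The hairpins at both ends were high, with mir-379 at 3678 CPM and mir-411 at 4254 CPM for both arms together at one end and mir-369 at 2651 CPM and mir-410 at 1782 CPM at the other, and mir-376a in the middle reached 4386 CPM. Some neighbours lay far apart and others overlapped in their ranges over the 9 libraries, as mir-379 and mir-411 did, and mir-543 and mir-495. Mir-299a, 1.58 kb from the start of the first hairpin, gave 13.1 CPM beside mir-411, and mir-1197 gave 2.73 CPM beside mir-323 with 344 CPM. Mir-376c and mir-376b, which lie just before mir-376a, gave 283 and 139 CPM.

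**Figure D1:**
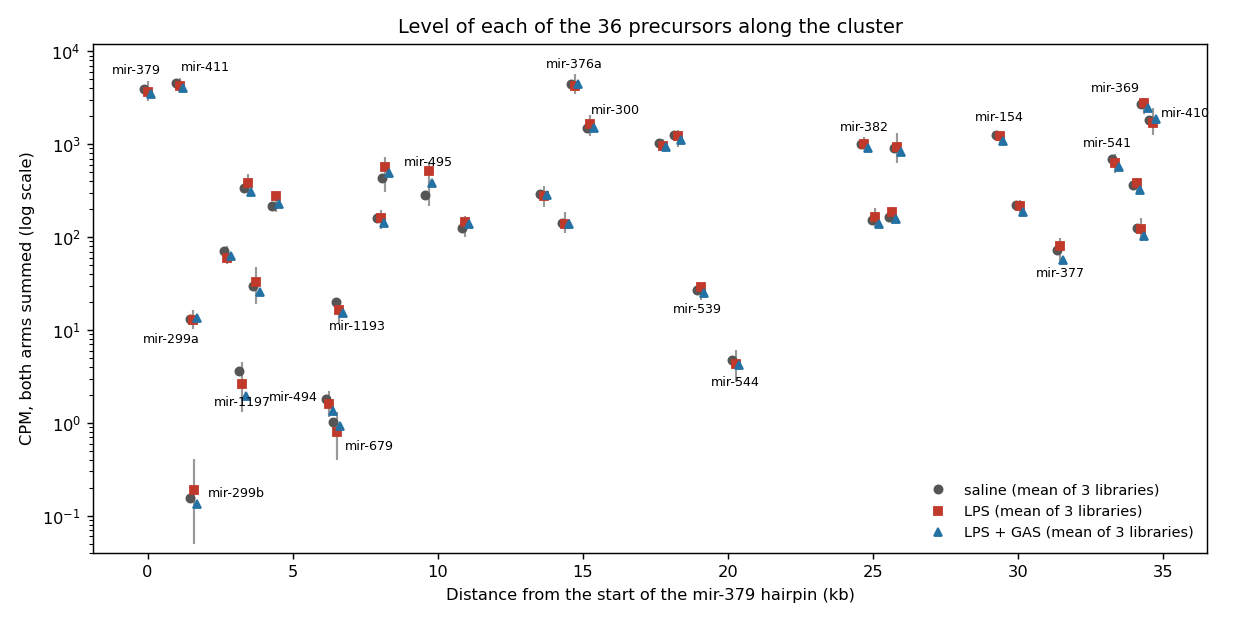
Level of each precursor, both arms summed (only 5p is listed for mir-382), against the distance of its hairpin from the start of the mir-379 hairpin in kb. Mir-666 and mir-544, whose hairpins RefSeq does not place, are drawn at the start of a mature strand. The vertical axis is CPM on a log scale, symbols are group means of 3 libraries and vertical lines run from the lowest to the highest of 9 libraries (a library at 0 is drawn at 0.05 CPM, which occurs for mir-299b). The 3 group means of most precursors lie close together, while precursors range from 0.160 CPM (mir-299b) to 4386 CPM (mir-376a). Those of mir-495 (286 CPM in saline, 516 in LPS, 378 in LPS + GAS) and mir-1197 (3.61, 2.65 and 1.93) lie farther apart.

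At the low end, 10 members did not reach the minimum for a test. MiR-679-5p had 0 reads in all 9 libraries, which allows at most 0.262 to 0.296 CPM before TMM scaling, a limit for counting error only. MiR-299b-5p had 7 reads in total, miR-299b-3p 8, miR-544-3p 18, miR-1193-5p 18, miR-485-3p 20, miR-376c-5p 22 and miR-494-5p 25, and these are the minor strands of their hairpins or, for mir-299b, the antisense hairpin. MiR-1197-5p with 29 reads and miR-758-5p with 44 lay just under the minimum. MiR-679-3p with 87 reads, miR-487b-5p with 90 and miR-667-5p with 123 lay just over it.

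A hairpin gives a 5p and a 3p strand, of which usually one is loaded into Argonaute and the other is degraded. Both arms were tested for 26 precursors. The 3p arm had more reads in 17 of them and the 5p arm in 9, and the arms were more than 10-fold apart in 13 precursors and more than 100-fold apart in 4. Mir-411 gave 99.6% to 99.8% of its reads from the 5p arm in each library and mir-379 98.7% to 99.1%, whereas mir-376a gave 0.109% to 0.180% from its 5p arm. In 24 of the 26 precursors the same arm was the major one in all 9 libraries.

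The exceptions were mir-299a and mir-380, the only tested precursors whose arms lay within a factor of 2. Mir-299a had a pooled 5p share of 48.9%, with 33.3% in LPS replicate 1 as the lowest library and 54.7% in saline replicate 1 as the highest, over 602 reads on 5p and 630 on 3p in all. Mir-380 had a pooled 5p share of 52.6%, between 49.5% and 58.2%. Among precursors with many reads the share moved most in mir-543, mir-329 and mir-495. Mir-543 gave 27.7%, 49.1% and 38.04% 5p reads in the saline group, 25.2%, 29.4% and 29.6% in LPS and 28.1%, 25.6% and 23.5% in LPS + GAS, so saline replicates 2 and 3 stood above every treated library. Mir-495 gave 14.7%, 20.02% and 11.4% in saline, 8.10%, 10.2% and 5.17% in LPS and 9.01%, 10.8% and 7.82% in LPS + GAS. Each saline library lay above every treated library for mir-495, and the levels of its arms are given with the first comparison. The same miR-495-3p reads enter this share and that comparison, and such separations were not counted over the 26 precursors. Shares also varied in abundant precursors, from 65.8% to 78.8% in mir-369 and from 76.3% to 88.0% in mir-154.

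**Figure D2:**
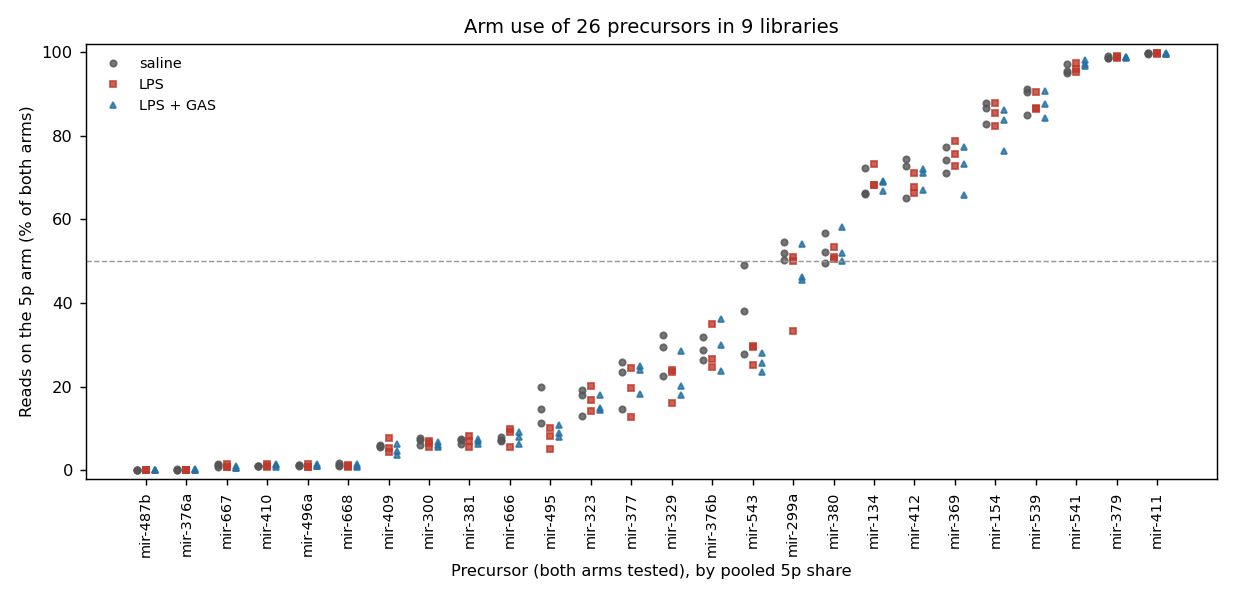
Reads on the 5p arm as a percentage of the reads on both arms, for the 26 precursors whose arms were both tested, ordered by the pooled share. Each symbol is 1 library, and the dashed line marks 50%. The points spread most in mir-543, from 23.5% to 49.1%, and those of mir-299a and mir-380 lie on both sides of the line.

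The first comparison, LPS vs saline, addresses which hippocampal miRNAs respond to the inflammatory stimulus. The threshold for a call was an adjusted p of at most 0.05 together with a log2 fold change of at least 1 in either direction, in edgeR's quasi-likelihood test with p-values adjusted by Benjamini-Hochberg over the 628 tested miRNAs. Of the 61 tested members 0 passed it, beside 0.0% of all tested miRNAs. DESeq2 and limma voom called 0 members as well. An unadjusted p under 0.05 was found for 2 of the 61 members, beside 2.39% of all tested miRNAs. The members' median log2 fold change was −0.04, the same as the −0.04 over all tested miRNAs. An absolute log2 fold change under 0.5 was found for 59 of the 61 members, beside 557 of all 628 tested miRNAs.

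MiR-495-3p had the lowest p of the members. Saline replicates 1, 2 and 3 had 2497, 1962 and 3187 of its reads, the LPS replicates 4007, 5116 and 6058, and the LPS + GAS replicates 3262, 3399 and 3958. Scaled, these were 238, 173 and 321 CPM in the saline group, 399, 425 and 609 in the LPS group and 304, 344 and 381.2 in the LPS + GAS group. Every LPS library lay above every saline library, and the LPS + GAS libraries lay below all LPS libraries and overlapped the upper end of saline. The group means were 244 ± 74.0 CPM in saline, 478 ± 115 in LPS and 343 ± 38.4 in LPS + GAS. The log2 fold change between the first 2 groups was 0.97 (SE 0.26, adjusted p = 0.992) by edgeR's quasi-likelihood test, and did not pass the threshold. Over the alternatives tried, its adjusted p lay between 0.0845 with DESeq2's Wald test and 1.00, and its log2 fold change between 0.76 without LPS replicate 3 and 1.21 without saline replicate 3. Its other arm, miR-495-5p, which is cut from the same hairpin, had 41.3, 43.4 and 41.2 CPM in the saline group, 35.1, 48.0 and 33.2 in the LPS group and 30.1, 41.8 and 32.4 in the LPS + GAS group, and its groups overlapped.

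MiR-329-3p was the other member with an unadjusted p under 0.05. It had 193, 153 and 125 CPM in the saline group, 213, 214 and 224 in the LPS group and 199.99, 145 and 181 in the LPS + GAS group. The LPS libraries lay within 12 CPM of each other and above all saline libraries, while LPS + GAS overlapped saline only. Its log2 fold change between LPS and saline was 0.46 (SE 0.20, adjusted p = 0.992) in edgeR. MiR-543-3p, the neighbour of miR-495-3p in the genome and in sequence, had 401, 157 and 277 CPM in the saline group, 441, 509.6 and 289 in the LPS group and 383, 349 and 362 in the LPS + GAS group. Its saline libraries spread 2.55-fold and overlapped the LPS libraries, and its log2 fold change in edgeR was 0.57 (SE 0.32, adjusted p = 0.992).

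Counted over the 61 members, 24 had a fitted log2 fold change above 0 and 37 below 0 in LPS vs saline (60.7% below), beside 42.5% above and 57.5% below over all tested miRNAs. With DESeq2's size factors in place of TMM, 35 were above 0 and 26 below, so the split depended on the scaling. The LPS libraries lay wholly above the saline libraries for 2 members, miR-329-3p and miR-495-3p, beside 1.91% of all tested miRNAs, and wholly below for 1, miR-1193-3p, beside 1.91%. MiR-1193-3p had 19.6, 19.9 and 20.3 CPM in the saline group, 16.1, 19.3 and 13.4 in the LPS group and 15.4, 11.9 and 17.8 in the LPS + GAS group, with saline libraries that differed by less than 1 CPM, and its log2 fold change was −0.29 (SE 0.22).

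The second comparison, LPS + GAS vs LPS, addresses what GAS changes in mice given LPS. Again 0 members passed the threshold in edgeR's quasi-likelihood test, beside 0.0% of all tested miRNAs, and DESeq2 and limma voom called 0. An unadjusted p under 0.05 was found for 1 member, beside 3.66% of all. The members lay lower more often than higher, with 45 of 61 below 0 (73.8%) and 16 above, beside 49.4% below and 50.6% above over all tested miRNAs. Their median log2 fold change was −0.15, beside 0.00 over all. The size of this shift rested on LPS replicate 2, without which the median was −0.03 with 37 members below 0. Without LPS replicate 3 it was −0.26 with 49 below 0, and without LPS + GAS replicate 1 it was −0.10 with 41 below 0.

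MiR-541-3p, the minor strand of mir-541, had the lowest p of the members in this comparison. It had 18.1, 31.6 and 34.5 CPM in the saline group, 20.1, 24.6 and 23.2 in the LPS group and 13.3, 11.8 and 17.5 in the LPS + GAS group. All LPS + GAS libraries lay below all LPS libraries. They lay below all saline libraries too, of which replicate 1 stood just above the highest LPS + GAS library. The group means were 28.1 ± 8.71 CPM in saline, 22.6 ± 2.3 in LPS and 14.2 ± 2.97 in LPS + GAS. The log2 fold change was −0.67 (SE 0.27, adjusted p = 0.903) in LPS + GAS vs LPS by edgeR's quasi-likelihood test. Its major strand miR-541-5p had 657, 596 and 754 CPM in the saline group, 745, 585 and 479 in the LPS group and 481, 635 and 538 in the LPS + GAS group, and these groups overlapped.

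MiR-377-3p followed with 42.3, 83.1 and 47.8 CPM in the saline group, 57.1, 62.1 and 77.0 in the LPS group and 42.3, 40.3 and 48.6 in the LPS + GAS group. The LPS + GAS libraries lay below all LPS libraries, but saline replicate 2 was the highest of all and the saline and LPS + GAS groups overlapped. Its log2 fold change in LPS + GAS vs LPS was −0.58 (SE 0.27, adjusted p = 0.903) in edgeR. MiR-409-5p had 18.8, 20.9 and 24.5 CPM in the saline group, 18.4, 33.1 and 16.6 in the LPS group and 12.6, 17.7 and 16.3 in the LPS + GAS group, where LPS replicate 2 stood alone at the top and the groups overlapped. Its log2 fold change in edgeR was −0.55 (SE 0.29, adjusted p = 0.903).

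For 5 members the LPS + GAS libraries lay wholly below the LPS libraries, beside 4.46% of all tested miRNAs, and for 0 wholly above, beside 4.14%. These were miR-154-5p, miR-329-3p, miR-377-3p, miR-495-3p and miR-541-3p. MiR-495-3p and miR-329-3p, which had the lowest p-values in LPS vs saline, had log2 fold changes of −0.48 (SE 0.26) and −0.31 (SE 0.20) in LPS + GAS vs LPS, with adjusted p = 0.903 each in edgeR. The 2 comparisons share the LPS libraries, so a high LPS group alone gives opposite signs in them.

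The third comparison, LPS + GAS vs saline, sets the mice that received both agents against those that received neither. By edgeR's quasi-likelihood test 0 members passed the threshold, beside 0.159% of all tested miRNAs, which is 1 miRNA outside the cluster, and DESeq2 and limma voom called 0 members. An unadjusted p under 0.05 was found for 2 members, beside 3.34% of all. The fitted change was below 0 for 50 of the 61 members (82%) and above 0 for 11, beside 55.9% below and 44.1% above over all tested miRNAs. The median log2 fold change was −0.16, beside −0.03 over all. With DESeq2's size factors 42 members were below 0 and the medians were −0.10 and 0.03. Without saline replicate 3 the members' median was −0.04, with 40 below 0, and without LPS + GAS replicate 1 it was −0.09, with 41 below 0.

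MiR-541-3p again had the lowest p, with a log2 fold change of −0.98 (SE 0.27, adjusted p = 0.839) in LPS + GAS vs saline by edgeR's quasi-likelihood test. That fit is unpaired, and with the replicate number as a block the same test gave −0.95 (SE 0.25, adjusted p = 0.645). Over the alternatives this change stayed between −1.17 without saline replicate 1 and −0.81 without saline replicate 3, with adjusted p between 0.300 and 1.00. MiR-1197-3p, a member of low level, had 2.39, 3.36 and 4.23 CPM in the saline group, 2.49, 2.82 and 1.71 in the LPS group and 1.49, 1.11 and 2.22 in the LPS + GAS group, and the saline libraries lay above all LPS + GAS libraries. Behind these values were 11 to 42 reads a library, and the log2 fold change in edgeR was −1.04 (SE 0.34, adjusted p = 0.998). MiR-495-3p came next in edgeR with 0.49 (SE 0.26, adjusted p = 0.998), of the opposite sign. With the replicate block in edgeR it had 0.52 (SE 0.19, adjusted p = 0.998).

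The LPS + GAS libraries lay wholly below the saline libraries for 7 members, beside 4.78% of all tested miRNAs, and wholly above for 0, beside 2.55%. These were miR-1193-3p, miR-1197-3p, miR-382-5p, miR-409-5p, miR-496a-5p, miR-541-3p and miR-543-5p. The most abundant of them, miR-382-5p, had 962, 929 and 1158 CPM in the saline group, 939, 1195 and 873 in the LPS group and 927, 901 and 909 in the LPS + GAS group, with saline replicate 2 and LPS + GAS replicate 1 almost level. MiR-543-5p averaged 149 CPM, miR-409-5p 19.9 and miR-1193-3p 17.1, and miR-496a-5p and miR-1197-3p were under 5 CPM in every library.

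**Figure D3:**
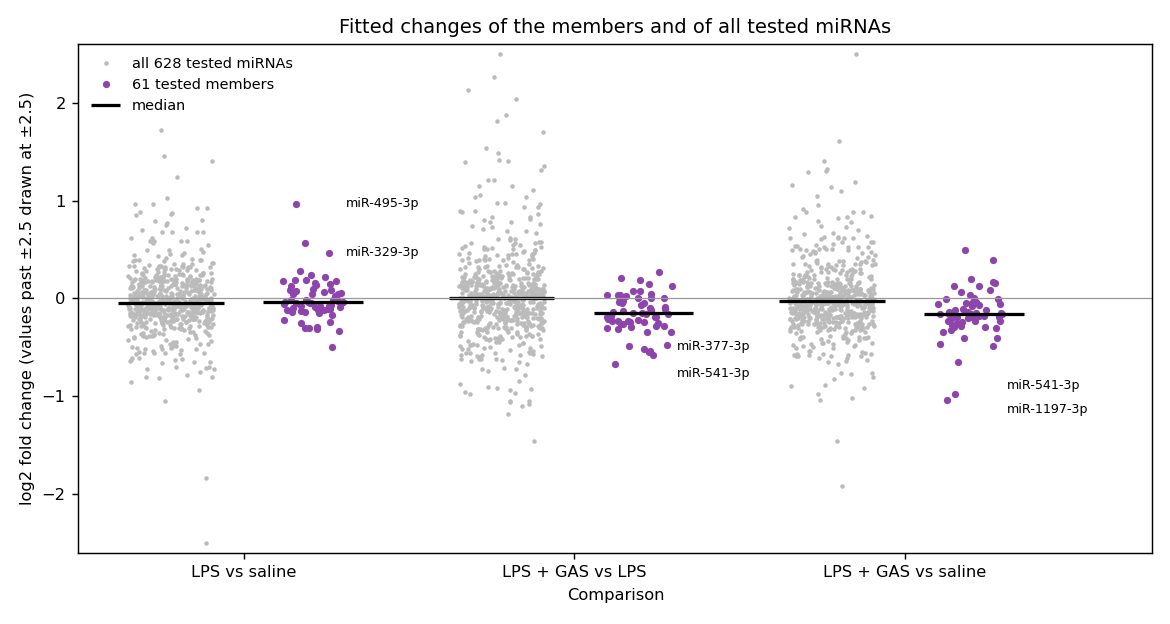
Fitted log2 fold changes in the 3 comparisons, for all 628 tested miRNAs (grey, members included) and for the 61 tested members (purple), with medians as black bars. The members' medians lie at −0.04, −0.15 and −0.16, and the members with the 2 lowest p-values of each comparison are named. No member passed the threshold in any of the 3.

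The red blood cell list, taken as a sum, was higher in the LPS + GAS group, and its single miRNAs were not compared. The summed level of this list (5 of 5 miRNAs found, none at 0, miR-451a among them) was 2065 to 4316 CPM in saline, 2189 to 3273 in LPS and 4606 to 6221 in LPS + GAS, with no overlap between LPS + GAS and either other group. The neuronal list ranged from 114616 to 137639 CPM in saline, 132668 to 148868 in LPS and 122082 to 152280 in LPS + GAS, so its groups overlapped. A list of vessels ranged from 18595 to 22892 CPM in saline, 16406 to 20669 in LPS and 19948 to 21007 in LPS + GAS. Its groups overlapped, as did those of the oligodendrocyte, leukocyte and microglia, choroid plexus and ependyma, and hindbrain lists. The part of the cell types behind these lists in the lower fitted changes of the members was not tested.

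The members with known roles in neurons or in cytokine mRNA control, and those that mark the ends of the cluster, are given next, apart from miR-329-3p, which is described with the first comparison, and none of them passed the threshold. MiR-134-5p, the Limk1 repressor of dendritic spines, had 84.7, 106 and 122 CPM in the saline group, 105, 151 and 89.1 in the LPS group and 96.9, 91.6 and 94.1 in the LPS + GAS group. LPS replicate 2 was its highest library and the 3 groups overlapped. Its log2 fold changes were 0.14 (95% interval −0.37 to 0.65) for LPS against saline, −0.29 (95% interval −0.80 to 0.22) for LPS + GAS against LPS and −0.15 (95% interval −0.66 to 0.36) for LPS + GAS against saline. MiR-485-5p, the SV2A regulator, had 674, 863 and 1164 CPM in the saline group, 862, 1308 and 623 in the LPS group and 796, 906 and 744 in the LPS + GAS group, with LPS replicates 2 and 3 as its highest and lowest libraries. Its log2 fold changes were 0.05 (95% interval −0.59 to 0.69), −0.19 (95% interval −0.83 to 0.45) and −0.14 (95% interval −0.78 to 0.50) in the same order.

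MiR-381-3p, with a part in dendrite growth, had log2 fold changes of −0.10 (95% interval −0.45 to 0.24) for LPS against saline, −0.05 (95% interval −0.39 to 0.30) for LPS + GAS against LPS and −0.15 (95% interval −0.50 to 0.19) for LPS + GAS against saline. MiR-369-3p, described on the AU-rich element of the tumour necrosis factor mRNA, had 684, 586 and 807 CPM in the saline group, 776, 624 and 624 in the LPS group and 568, 619.9 and 874 in the LPS + GAS group. LPS + GAS replicate 3 was its highest library and LPS + GAS replicate 1 its lowest. Its log2 fold changes were −0.04 (95% interval −0.51 to 0.44), 0.03 (95% interval −0.45 to 0.50) and −0.01 (95% interval −0.49 to 0.47), so the data left room for changes of that size in both directions.

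The miR-376 members, which lie side by side, had group means of 4480.4 ± 730.1 CPM in saline, 4209 ± 662 in LPS and 4450.1 ± 1117 in LPS + GAS for miR-376a-3p, 101 ± 12.7 CPM in saline, 97.4 ± 3.67 in LPS and 98.3 ± 38.6 in LPS + GAS for miR-376b-3p and 291 ± 37.5 CPM in saline, 276 ± 54.6 in LPS and 282 ± 61.1 in LPS + GAS for miR-376c-3p. Their log2 fold changes in LPS vs saline were −0.09 (SE 0.22), −0.05 (SE 0.26) and −0.07 (SE 0.22). For LPS + GAS they were 0.08 (SE 0.22), 0.01 (SE 0.26) and 0.03 (SE 0.22) against LPS, and against saline −0.01 (SE 0.22), −0.04 (SE 0.26) and −0.04 (SE 0.22). MiR-376b-3p had 78.1, 74.0 and 143 CPM in LPS + GAS, where replicate 3 stood above all other libraries. The ends of the cluster, miR-379-5p and miR-410-3p, had log2 fold changes of −0.10 (SE 0.19) and −0.12 (SE 0.29) for LPS against saline, −0.09 (SE 0.19) and 0.15 (SE 0.29) for LPS + GAS against LPS, and −0.19 (SE 0.19) and 0.03 (SE 0.29) for LPS + GAS against saline. For miR-134-5p, miR-485-5p, miR-381-3p, miR-369-3p and these 5, edgeR's adjusted p was 0.992 in LPS vs saline and at least 0.903 in both others.

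**Figure D4:**
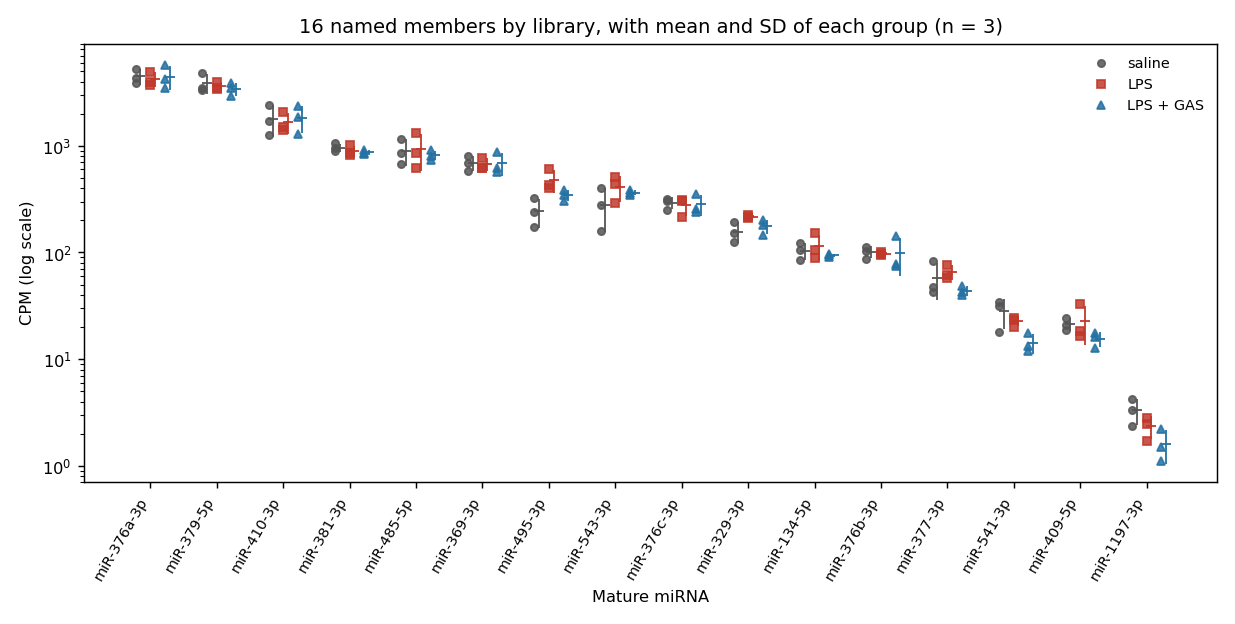
CPM of 16 named members on a log scale, with 1 symbol per library and, beside each group of 3, a dash at the mean with the SD as an error bar. The LPS libraries of miR-495-3p and miR-329-3p lie above the saline libraries, the LPS + GAS libraries of miR-541-3p lie below both other groups, and the groups of miR-376a-3p, miR-379-5p and miR-381-3p overlap.

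The groups differed little in the reads on the whole cluster. The members took 2.39%, 2.82% and 3.11% of the reads in saline, 2.87%, 3.41% and 2.48% in LPS and 2.34%, 2.57% and 2.88% in LPS + GAS. The means were 2.77% ± 0.362 (SD, n = 3), 2.92% ± 0.466 and 2.597% ± 0.270, and the groups overlapped. LPS replicate 2 was the highest library and LPS + GAS replicate 1 the lowest. The table's exp values, whole numbers that never exceed the read counts and whose making the sources used here do not describe, gave mean shares of 5.89%, 6.01% and 5.499%. For the members these values were 0.784 to 1 times the read counts.

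Within a group, most members deviated in the same direction in some libraries, and were more evenly split in others. On the scale of log2(CPM + 1), with each group's mean taken out, 52 of the 61 tested members lay above the group mean in saline replicate 3, and 17 in each of saline replicates 1 and 2. In the LPS group 37 members lay above it in replicate 1, 38 in replicate 2 and 14 in replicate 3, and in the LPS + GAS group 21, 26 and 42 did. Over all tested miRNAs 45.1% to 55.7% lay above it in a library. The members came near this in LPS replicate 1, with 60.7% beside 55.7%, and in LPS + GAS replicate 2, with 42.6% beside 45.1%. The median deviation of the members was 0.19 in saline replicate 3, 0.16 in LPS replicate 2 and −0.20 in LPS replicate 3, whereas the median over all tested miRNAs lay between −0.03 and 0.03 in each library.

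Pairs of members tended to move together across the 9 libraries, and so did pairs of the proximal miRNAs of the same domain. The median Pearson correlation of these deviations was 0.28 over the 1830 pairs of tested members, and 70.1% of the pairs were above 0. Over the 196878 pairs of all tested miRNAs the median was 0.000656 with 50.1% above 0. Over the 378 pairs of the 28 tested proximal miRNAs, from the Meg3 and Rtl1-antisense region, the median was 0.25 with 66.7% above 0. Spearman correlations gave medians of 0.25 for the members and 0 for all tested miRNAs. Among members with a mean of at least 1000 reads the median was 0.37 (378 pairs), and among all miRNAs at that depth 0.02. The points of these correlations share library, depth, scaling and the removal of group means, so they are given as a description.

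The median was somewhat lower for pairs farther apart along the transcript. Pairs of members from different hairpins less than 2 kb apart had a median correlation of 0.36 (165 pairs), those 2 to 10 kb apart 0.28 (510 pairs), those 10 to 20 kb apart 0.27 (501 pairs) and those over 20 kb apart 0.24 (452 pairs). In the same order 72.7%, 68.8%, 71.9% and 66.6% of the pairs were above 0, so this share did not fall steadily. Pairs of different hairpins that include mir-666 or mir-544, whose hairpins RefSeq does not place, were left out. The 2 arms of 1 hairpin had a median of 0.32 over 26 pairs, no higher than neighbouring hairpins. Over the 1708 pairs of a member with 1 of the 28 tested proximal miRNAs, of 33 listed, the median was 0.27.

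The most typical members were miR-412-5p, miR-134-3p and miR-381-3p, whose deviations correlated at 0.96, 0.93 and 0.91 with the median of the other members over the 9 libraries. For 41 of the 61 members this correlation was above 0.5. It was below 0 for 9, namely miR-411-3p, miR-299a-5p, miR-329-3p, miR-377-3p, miR-494-3p, miR-299a-3p, miR-539-3p, miR-379-3p and miR-376c-3p. MiR-411-3p and miR-379-3p, the close pair printed above, were both among them, and both arms of mir-299a were. MiR-329-3p and miR-377-3p, which were among the members with the lowest p-values, had −0.44 each, and miR-495-3p had 0.14.

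**Figure D5:**
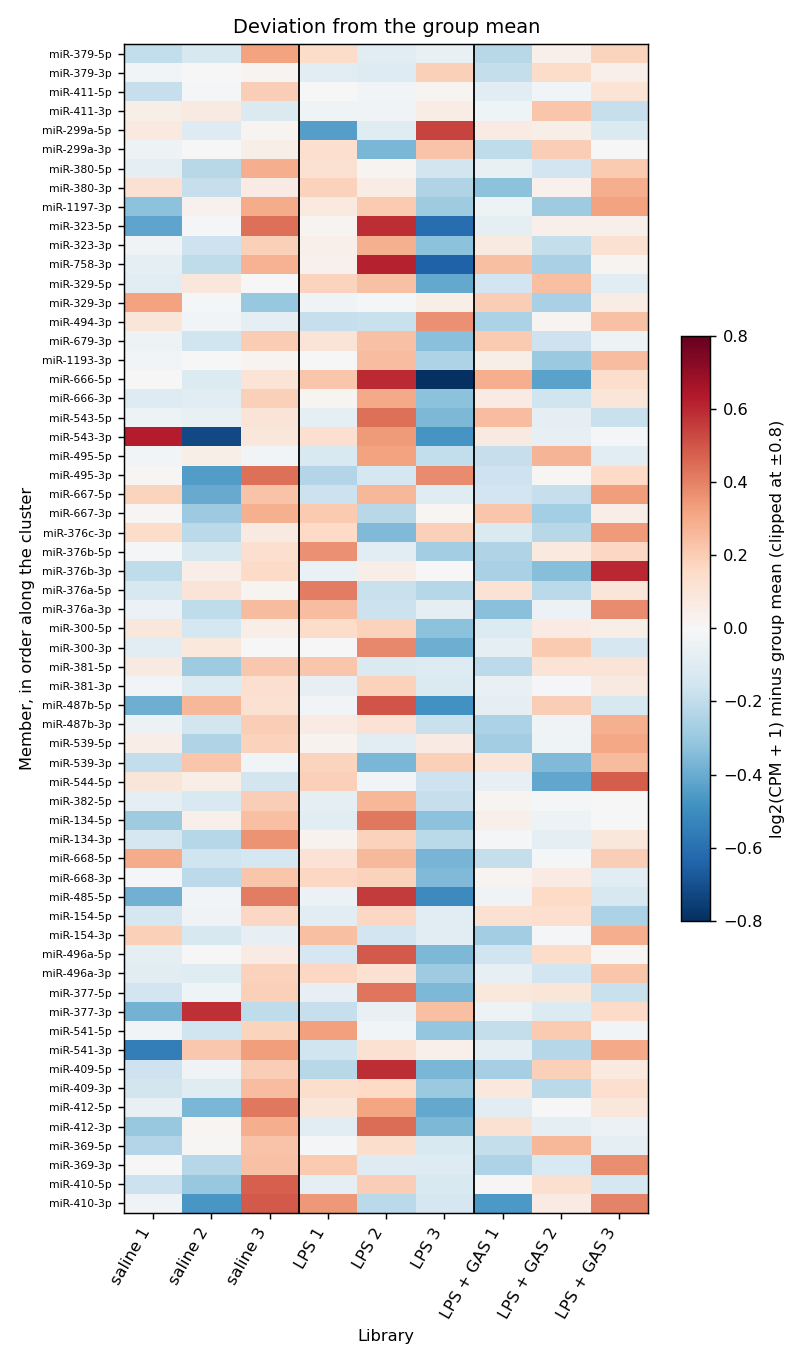
Deviation of each of the 61 tested members (rows, in order along the cluster) from its group mean in each library (columns), as log2(CPM + 1) with the colour clipped at ±0.8. Saline replicate 3 is mostly above the group means and LPS replicate 3 mostly below, with miR-411-3p and miR-329-3p among the rows that go the other way in both. LPS replicate 2 is more evenly split, with 38 members above.

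Base composition moved with these deviations in some libraries. The tested members had a median GC content of 45.5%, against 50% for the other tested miRNAs. Across the 61 members the Spearman correlation of GC content with the deviation was 0.62 in LPS replicate 2, −0.51 in LPS replicate 3, −0.48 in LPS + GAS replicate 3 and 0.43 in LPS + GAS replicate 1, beside 0.21, −0.10, −0.15 and 0.21 across the 567 other tested miRNAs. In LPS replicate 2 the 22 members with at least 50% GC had a median deviation of 0.29 and the 14 with under 40% GC −0.10. LPS replicate 2 also had the highest TMM factor and the lowest oligodendrocyte and leukocyte lists. The part of base composition and cell make-up in the shared movement was not tested.

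Single members that spread widely inside a group were mostly of low level. MiR-487b-5p had 8, 19 and 3 reads in the LPS libraries, a 5.23-fold range in CPM. MiR-666-5p had 148, 234 and 66 reads there, a 2.93-fold range, and miR-679-3p 9, 13 and 4 reads, a 2.68-fold range. MiR-758-3p had 311, 563 and 188 reads there, a 2.47-fold range, and in all 4 LPS replicate 2 was the highest library and replicate 3 the lowest. MiR-543-3p was the exception in level and group, with 4201, 1779 and 2749 reads in the saline libraries. Of the 61 tested members, 0 had a median of at least 20 reads and fell under 1/20 of it in a library, beside 4 of all 628 tested miRNAs. Such falls were thus rare in both sets. Over the 9 libraries the median coefficient of variation was 17.3% for the members and 23.6% for all tested miRNAs. These sets were not matched for level, and the median level was 57.7 CPM for the members and 22.7 CPM for all. The ratio of the highest to the lowest library had a median of 1.68 over the members.

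The proximal miRNAs of the domain are given for comparison, since they are thought to come from the same maternal transcript. MiR-127-3p, which is complementary to Rtl1, averaged 22785 CPM, above every member, and miR-434-3p 5052, miR-433-3p 2820, miR-341-3p 686 and miR-434-5p 616 CPM. The proximal list took 3.40% ± 0.794 of the reads in saline, 3.86% ± 1.17 in LPS and 3.10% ± 0.216 in LPS + GAS (SD, n = 3). Its 28 tested miRNAs had median log2 fold changes of 0.02 for LPS against saline, −0.30 for LPS + GAS against LPS and −0.29 for LPS + GAS against saline, beside −0.04, −0.15 and −0.16 for the Mirg cluster, and 0 of them were called. The difference between the lists was not tested.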

How the data were processed

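Small RNA libraries of 9 mouse hippocampi (3 saline, 3 LPS, 3 LPS + GAS) were sequenced on a BGISEQ-500. The authors deposited a table of read counts per mature miRNA and library, not normalized, with a second column of whole numbers per library named exp. The submitters' processing notes name GRCm38.p6. The sources used here do not give the aligner, the counter or the miRBase release. The table's averages and comparisons (log2 fold changes, p- and q-values) were not used. Groups came from the sample labels, and 0 columns with a value per library belonged to no sample.

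Members were taken by name. The members, the lists and the tests were chosen with earlier results of these data known. Named members were the 10 most abundant, 11 with known roles or at the cluster ends, the 3 with the lowest p of each comparison, the most variable, those near the filter, those sharing a seed, and precursors with balanced arms. The tests ran in edgeR 4.0.16 (R 4.3.3) on counts after a filter of 10 reads in 3 of 9 libraries. TMM factors, a single fit with a mean per group (glmQLFit), glmQLFTest and Benjamini-Hochberg adjustment over 628 miRNAs were used, and the procedure was checked on simulated counts. The SE is the log2 fold change divided by the square root of F. DESeq2 1.42.0, limma 3.58.1 and the other alternatives are given in the closing section. Co-variation used log2(CPM + 1). Library totals were 10119758 to 11457656 reads, and intervals and limits from them cover counting error only. The sources used here do not say whether the reads carry molecular identifiers.

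Same-numbered libraries of LPS + GAS and saline deviated together, with correlations of 0.296, 0.329 and 0.370 over miRNAs. By rule this counts as a pairing, although it rests on these correlations alone. The fit reported does not use the pairing, so its SE and p-values are unpaired, and the replicate block is an alternative to it. In the other comparisons same-numbered libraries did not deviate together throughout (0.317, 0.209 and −0.284 for LPS against saline, −0.109, 0.0466 and −0.274 for LPS + GAS against LPS).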

Additional observations from a re-analysis of the deposited data

How the results depend on the processing

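Under every alternative 0 members were called in each comparison: DESeq2's size factors, no filter, a minimum of 50 reads, DESeq2's Wald test, limma voom, a replicate block, only the 2 groups compared, the exp values, and each library left out. The lowest adjusted p of a named member was 0.0845 (DESeq2's Wald test, miR-495-3p, LPS against saline). With the replicate number as a block the members' medians were −0.04 for LPS against saline, −0.15 for LPS + GAS against LPS and −0.16 for LPS + GAS against saline, and the block changed no call. Over all alternatives these medians ran from −0.08 to 0.07, −0.26 to −0.03 and −0.16 to −0.04. Of 39 changes of named members, 22 took the other sign under some alternative, none larger than 0.19 (log2) in the fit reported, so their direction was not detectable with 3 libraries a group. The causes were not tested.

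For LPS against saline, miR-376b-3p became 0.0018 with DESeq2's size factors and 0.0018 with DESeq2's Wald test. For LPS against saline, miR-369-3p became 0.017 with DESeq2's size factors, 0.0073 with no filter, 0.017 with DESeq2's Wald test, 0.0091 with only the 2 groups and 0.019 with the exp values. For LPS + GAS against LPS, miR-376b-3p became −0.053 with limma voom, −0.041 with the replicate block and −0.0063 with the exp values. For LPS + GAS against saline, miR-376a-3p became 0.048 with DESeq2's size factors, 0.042 with no filter, 0.025 with a minimum of 50 reads, 0.048 with DESeq2's Wald test and 0.023 with the exp values. For LPS + GAS against saline, miR-376b-3p became 0.012 with DESeq2's size factors, 0.0046 with no filter and 0.012 with DESeq2's Wald test. For LPS + GAS against saline, miR-376c-3p became 0.014 with DESeq2's size factors, 0.0058 with no filter and 0.014 with DESeq2's Wald test. For LPS + GAS against saline, miR-369-3p became 0.047 with DESeq2's size factors, 0.040 with no filter, 0.025 with a minimum of 50 reads, 0.047 with DESeq2's Wald test and 0.024 with the exp values. Leaving out a library in turn for LPS against saline gave −0.25 to 0.28 for miR-485-5p, −0.16 to 0.11 for miR-376c-3p, −0.11 to 0.025 for miR-376b-3p, −0.22 to 0.046 for miR-376a-3p, −0.18 to 0.082 for miR-379-5p, −0.32 to 0.16 for miR-410-3p, −0.15 to 0.087 for miR-369-3p and −0.073 to 0.30 for miR-134-5p. Leaving out a library in turn for LPS + GAS against LPS gave −0.34 to 0.18 for miR-376b-3p, −0.10 to 0.066 for miR-381-3p, −0.41 to 0.16 for miR-485-5p, −0.14 to 0.14 for miR-376c-3p, −0.16 to 0.15 for miR-369-3p, −0.16 to 0.025 for miR-379-5p, −0.10 to 0.24 for miR-376a-3p and −0.037 to 0.36 for miR-410-3p. Leaving out a library in turn for LPS + GAS against saline gave −0.15 to 0.19 for miR-376a-3p, −0.17 to 0.076 for miR-376c-3p, −0.15 to 0.16 for miR-369-3p, −0.35 to 0.14 for miR-376b-3p, −0.12 to 0.32 for miR-410-3p and −0.26 to 0.086 for miR-485-5p. The exp values gave shares of 5.89% in saline, 6.01% in LPS and 5.499% in LPS + GAS. Leaving out a library gave a median pairwise correlation of members from 0.21, without saline replicate 3, to 0.32, without LPS + GAS replicate 2. With no filter 70 members were tested, all but miR-679-5p, which had no read.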
